A study of Mus musculus with 8 samples.

Results

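The genes described here make polyunsaturated fatty acids, activate long-chain fatty acids and put them into phospholipids. They were followed in 8 mouse liver samples. The 10 members were listed by name as genes of this pathway (Lpcat3, Elovl1, Elovl2, Elovl5, Fads1, Fads2, Acsl1, Acsl3, Acsl4 and Acsl5), and all probe sets that carry one of these symbols in the platform annotation were taken. Of the 10 genes, 8 had probe sets, 14 in all, among 22626 probe sets of the array without its controls. Acsl1 and Acsl3, acyl-CoA synthetases like Acsl4 and Acsl5, matched no probe set by symbol and were not analysed here. All 14 probe sets passed the filter on dim signals, which kept 15838 probe sets in all. Each of the 4 groups held 2 arrays. In the first group mice carried human LXRα and received T0901317 (T09, 5 mg/kg), in the second human LXRα and vehicle, in the third GFP and T09 at the same dose, and in the fourth, the control, GFP and vehicle. Injections were intraperitoneal and ran for 3 days. Mice of all 4 groups were of the C57B6 background and shared one further germline genotype, had received the adeno-associated virus AAV2.8 at 10 weeks of age, had eaten Western diet for 12 weeks and were 8 months old. The human promoter of thyroxine binding globulin, which is active in hepatocytes, drove the transgene. LXRα is a nuclear receptor that oxysterols activate, and T09 is a synthetic agonist of it.

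Linoleic and alpha-linolenic acid from the diet are lengthened and desaturated in turn by elongases and fatty acid desaturases to arachidonic and docosahexaenoic acid, mainly in the endoplasmic reticulum of hepatocytes. Acyl-CoA synthetases couple free fatty acids to coenzyme A, and acyltransferases then exchange the acyl chain of a phospholipid in what is called the Lands cycle. In mouse liver LXR is known to drive Lpcat3 directly, and to act on elongases and desaturases in part through the transcription factor SREBP-1c.

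The stretches upstream of 3 members are shown as examples, 1 each for remodelling, elongation and desaturation. They come from RefSeq promoter windows of GRCm38.p6, are limited to bases before the annotated gene, and read 5′ to 3′ on the gene's strand. The stretch of Lpcat3 is chr6:124662854-124663093 on the plus strand, that of Elovl5 chr9:77917115-77917364 on the plus strand, and that of Fads2 chr19:10101504-10101753 on the minus strand.
Lpcat3: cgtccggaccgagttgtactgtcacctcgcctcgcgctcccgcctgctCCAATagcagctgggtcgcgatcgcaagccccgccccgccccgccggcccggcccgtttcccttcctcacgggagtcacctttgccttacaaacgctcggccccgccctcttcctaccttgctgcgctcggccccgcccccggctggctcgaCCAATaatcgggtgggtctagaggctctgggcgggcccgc
Elovl5: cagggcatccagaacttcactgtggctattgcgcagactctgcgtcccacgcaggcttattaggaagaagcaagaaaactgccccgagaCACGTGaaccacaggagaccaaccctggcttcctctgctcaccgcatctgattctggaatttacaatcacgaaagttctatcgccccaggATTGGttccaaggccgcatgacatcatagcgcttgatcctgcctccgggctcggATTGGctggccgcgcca
Fads2: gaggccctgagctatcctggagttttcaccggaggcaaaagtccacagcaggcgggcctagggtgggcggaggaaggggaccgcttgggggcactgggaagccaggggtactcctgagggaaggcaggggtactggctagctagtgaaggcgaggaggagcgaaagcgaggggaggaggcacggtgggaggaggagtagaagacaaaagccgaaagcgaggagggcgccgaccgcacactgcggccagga
Capitals mark matches on either strand to the NF-Y box CCAAT, which reads as ATTGG from the opposite strand, and to the E-box CACGTG. Windows of 250 bases before the start site were searched on both strands for these and for the nuclear receptor hexamer AGGTCA, the DR4 repeat (a pair of such hexamers spaced as LXR is known to bind, with which the single hexamer can overlap) and the sterol regulatory element TCACNCCAC. Of 10 members, 9 had a window, 12 windows in all, and Fads1 had none. The NF-Y box was in 6 of the 12 windows, against 33.8% of 32851 windows of all genes. Lpcat3 held 3 NF-Y boxes, of which 2 lie in the stretch shown, and Elovl5 held 2. The E-box was in 1 of the 12 windows, that of Elovl5, against 6.02% of all windows. The single hexamer was in 1 window, of Elovl1, against 14%, and the sterol element in 1 window, of Acsl1, against 1.05%. No member window held the DR4 repeat, which 0.0639% of all windows held, and Fads2 held none of the 5 motifs in these letters. A match is a string of letters, not a measured binding site.

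Median intensity ranged from 21.0 to 23.2 over the 8 arrays. Pearson's r of log2 values within a group ranged from 0.968 to 0.986 over all probe sets without controls. Signals of hepatocyte markers (9 tested of 11) were high on every array but not even between groups. Their summed intensity was 101000 to 120000 on the LXRα T09 arrays and 126000 to 131000 on the LXRα vehicle arrays. On the GFP T09 arrays it was 108000 to 109000, and on the GFP vehicle arrays 112000 to 116000. Of the 9 markers, 2 were higher and 7 lower in LXRα T09 than in LXRα vehicle livers. In LXRα vehicle against GFP vehicle livers 6 were higher and 3 lower. The control probe sets for β-actin, which compare the 3′ with the 5′ end of the message and rise when RNA is shorter, stood apart on 3 arrays. Their 3′/5′ ratio was 2.75 and 36.3 on the LXRα T09 arrays and 2.61 and 3.08 on the LXRα vehicle arrays, and 7.56 and 11.0 on the GFP T09 arrays and 2.21 and 2.08 on the GFP vehicle arrays. The high values all belong to T09 arrays, and replicate 1 of the LXRα T09 group is the only T09 array near the vehicle arrays by this ratio. By the control probe set for 18S ribosomal RNA that array stood with the other T09 arrays. Its intensity was 45.3 and 33.8 on the LXRα T09 arrays and 245 and 488 on the LXRα vehicle arrays, and 23.9 and 11.8 on the GFP T09 arrays and 638 and 302 on the GFP vehicle arrays. All 4 T09 arrays thus lay below all 4 vehicle arrays on it, so any gene that separates T09 from vehicle also separates with this control signal, whose part in such results was not tested. Summed marker intensity was 108 to 154 for lymphocytes (6 tested of 10), 49.7 to 70.3 for cholangiocytes (2 of 5) and 193 to 441 for erythroid cells (3 of 6) over all arrays.

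No member probe set passed an adjusted p under 0.05 in any of the 7 comparisons (limma with Benjamini-Hochberg adjustment over all 15838 probe sets). Over all probe sets the share that passed was 0.0253% for LXRα T09 against LXRα vehicle, 0% for GFP T09 against GFP vehicle, 0.00631% for LXRα vehicle against GFP vehicle and 0% for LXRα T09 against GFP T09. It was 0.568% for T09 against vehicle averaged over both transgenes, 0.00631% for LXRα against GFP averaged over both treatments and 0.00631% for the interaction of transgene and T09. The count of 0 among the members thus stands beside a share that was itself under 1% in each comparison. At an unadjusted p under 0.05, the members had 5 of 14 probe sets between LXRα T09 and LXRα vehicle (13.2% of all probe sets), 2 between GFP T09 and GFP vehicle (13.2%), 1 between LXRα vehicle and GFP vehicle (5.15%) and 0 between LXRα T09 and GFP T09 (2.24%). The averaged T09 comparison held 5 (23.2% of all), the averaged transgene comparison 0 (2.66%) and the interaction 1 (4.77%). For each gene a leading probe set, the brightest tested one, leaving aside those ending in x_at unless a gene has no other, carries the values below unless another is named. Values are linear intensities as deposited, differences are on the log2 scale with moderated standard errors (SE), and each comparison shares arrays with others.

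**Figure D1:**
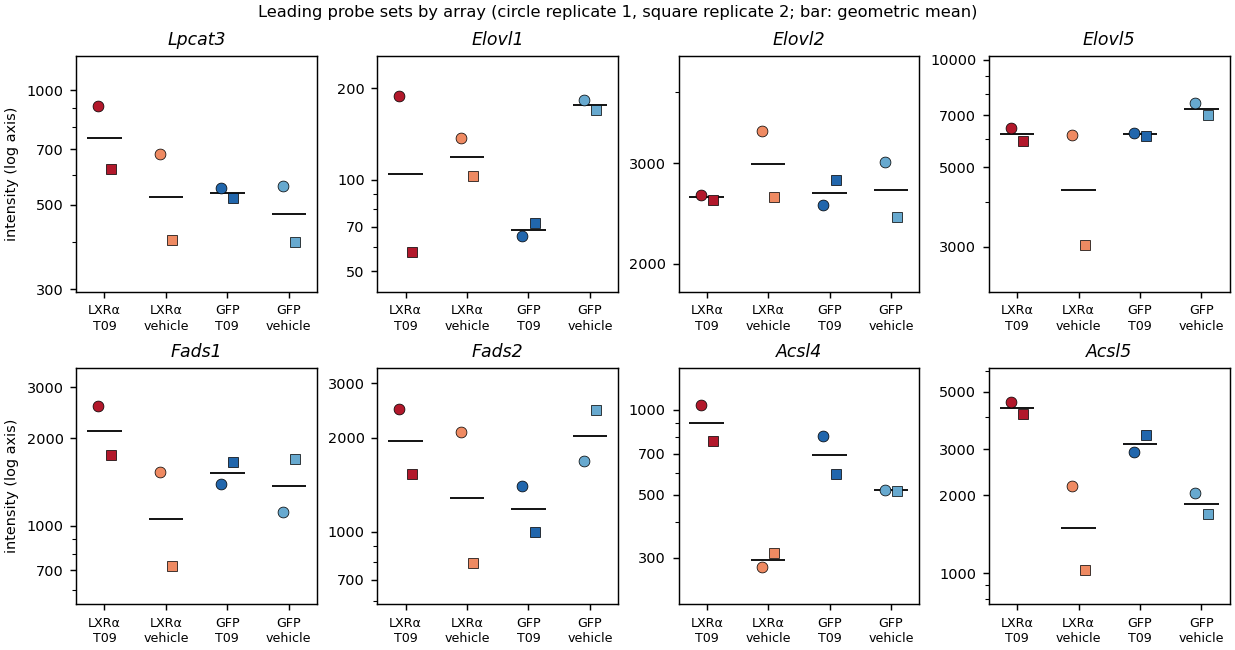
Intensity (log axis) of the leading probe set of the 8 measured genes on each array, by group, with circles for replicate 1, squares for replicate 2 and bars for the geometric mean of the 2 arrays. Acsl4 and Acsl5 lie higher on every T09 array than on any vehicle array, and replicate 2 of the LXRα vehicle livers is the lower of its pair for 7 of the 8 genes.

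Lpcat3 (chr6:124663094-124704716 in GRCm38.p6), the acyltransferase that returns linoleoyl and arachidonoyl chains to lysophosphatidylcholine, had 911 and 620 on the LXRα T09 arrays, 679 and 405 on the LXRα vehicle arrays, 555 and 522 on the GFP T09 arrays and 562 and 399 on the GFP vehicle arrays. Its highest array was an LXRα T09 array, and the T09 arrays overlapped with the vehicle arrays within both transgenes. The difference was 0.52 (SE 0.35) for LXRα T09 against LXRα vehicle, with an adjusted p of 0.490. It was 0.15 without replicate 2 and 0.89 without replicate 1 of the LXRα vehicle livers. In GFP livers T09 against vehicle gave 0.18 (SE 0.35, adjusted p = 0.801). LXRα T09 against GFP T09 gave 0.48 (SE 0.35), and here both LXRα arrays lay above both GFP arrays, as did 10.6% of all probe sets. With both transgenes averaged, T09 against vehicle was 0.35, with a 95% interval of -0.23 to 0.93.

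Elovl5 (chr9:77917365-77984519), the elongase that lengthens the products of the first desaturation of polyunsaturated acids, had 6450 and 5930 on the LXRα T09 arrays, 6160 and 3030 on the LXRα vehicle arrays, 6230 and 6130 on the GFP T09 arrays and 7580 and 7000 on the GFP vehicle arrays. Replicate 2 of the LXRα vehicle livers stood alone at the low end, and the GFP vehicle arrays were the 2 highest. The LXRα vehicle arrays lay below the GFP vehicle arrays by 0.76 on the log2 scale (-0.76, SE 0.32, unadjusted p = 0.0528, adjusted p = 0.963 from limma), and 13.5% of all probe sets were lower without overlap. That difference was -0.24 without replicate 2 and -1.27 without replicate 1 of the LXRα vehicle livers. T09 against vehicle was 0.52 (SE 0.32) in LXRα livers and -0.24 (SE 0.32) in GFP livers. Without replicate 2 of the LXRα vehicle livers the value in LXRα livers was 0.0059, and without replicate 1 it was 1.03. LXRα T09 and GFP T09 had nearly the same level, with a difference of 0.00054 that becomes -0.0077 when each array is centred on its median. The second Elovl5 probe set, an x_at one, gave 0.60 and -0.04 for the same T09 comparisons and -0.43 for LXRα vehicle against GFP vehicle, the same directions as the leading one.

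Elovl2 (chr13:41182382-41220403), which lengthens the longest polyunsaturated chains on the way to docosahexaenoic acid, varied least. It had 2640 and 2590 on the LXRα T09 arrays, 3420 and 2620 on the LXRα vehicle arrays, 2530 and 2800 on the GFP T09 arrays and 3010 and 2410 on the GFP vehicle arrays. The arrays of all 4 groups overlapped or nearly met, and no comparison exceeded 0.20 in size. T09 against vehicle averaged -0.11 with a 95% interval of -0.49 to 0.27. In GFP livers alone the difference was -0.02, and 0.05 with arrays centred on their medians, and LXRα T09 against GFP T09 was -0.03, and 0.04 after quantile normalization, so neither has a settled direction.

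Elovl1 (chr4:118426874-118432953), an elongase of saturated and monounsaturated very long chains used in sphingolipids, had 3 probe sets that disagreed. The leading one, ending in a_at, had 189 and 57.7 on the LXRα T09 arrays, 137 and 103 on the LXRα vehicle arrays, 65.1 and 72.0 on the GFP T09 arrays and 183 and 170 on the GFP vehicle arrays. Its 3 low values were on the 3 T09 arrays with the high β-actin ratio, and the T09 array with a low ratio was the brightest of all. The other probe sets, both ending in x_at, which in this array's naming can also hold probes matching other genes, were higher on T09 arrays. The brighter of these had 316 and 421 on the LXRα T09 arrays, 215 and 159 on the LXRα vehicle arrays, 271 and 404 on the GFP T09 arrays and 236 and 159 on the GFP vehicle arrays. All 4 T09 arrays exceeded all 4 vehicle arrays on it, as they did for 8.2% of all probe sets. Its T09 difference averaged 0.88 (SE 0.24, adjusted p = 0.115), that of the dimmer x_at probe set 0.81 (SE 0.22, adjusted p = 0.123), and that of the leading probe set -0.77 (SE 0.36, adjusted p = 0.237). In GFP livers T09 against vehicle was -1.37 (SE 0.51, adjusted p = 0.333) on the leading probe set, against 0.69 and 0.77 on the others. In LXRα livers it was -0.18 on the leading one, against 0.92 and 0.98. When the log2 β-actin ratio was added to the fit, the averaged T09 difference of the leading probe set was 0.10. These arrays give Elovl1 no settled direction, and the part of RNA length in the disagreement was not tested.

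Fads2 (chr19:10062765-10101503), the enzyme of the first, rate-limiting desaturation of linoleic and alpha-linolenic acid, had 2480 and 1530 on the LXRα T09 arrays, 2090 and 790 on the LXRα vehicle arrays, 1400 and 999 on the GFP T09 arrays and 1680 and 2460 on the GFP vehicle arrays. Both GFP T09 arrays lay below both GFP vehicle arrays, as for 35.2% of all probe sets, while in LXRα livers the groups overlapped. T09 against vehicle was 0.60 (SE 0.50, adjusted p = 0.571) in LXRα livers and -0.78 (SE 0.50, adjusted p = 0.511) in GFP livers. The second Fads2 probe set had 1330 and 225 on the LXRα T09 arrays, 1580 and 583 on the LXRα vehicle arrays, 424 and 180 on the GFP T09 arrays and 1270 and 1450 on the GFP vehicle arrays. The 3 T09 arrays with a high β-actin ratio held its 3 lowest values. It gave -0.82 in LXRα livers, opposite in sign to the leading probe set, and -2.30 in GFP livers (SE 0.88, unadjusted p = 0.0351, adjusted p = 0.342 from limma). Whether the 2 probe sets differ because of RNA length was not tested.

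Fads1 (chr19:10182877-10196874), the desaturase that makes arachidonic acid from dihomo-gamma-linolenic acid, had 2590 and 1750 on the LXRα T09 arrays, 1530 and 724 on the LXRα vehicle arrays, 1390 and 1660 on the GFP T09 arrays and 1110 and 1700 on the GFP vehicle arrays. The LXRα T09 arrays were the 2 highest and lay above both LXRα vehicle arrays, as for 20% of all probe sets, and the GFP groups overlapped. LXRα T09 against LXRα vehicle was 1.02 (SE 0.42, 2.03-fold, adjusted p = 0.371), and GFP T09 against GFP vehicle 0.14 (SE 0.42, adjusted p = 0.876). The test of the difference between these T09 differences gave 0.88 (SE 0.59, unadjusted p = 0.181 from limma), so a difference between transgenes was not shown. The difference in LXRα livers was 0.48 without replicate 2 and 1.56 without replicate 1 of the LXRα vehicle livers.

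**Figure D2:**
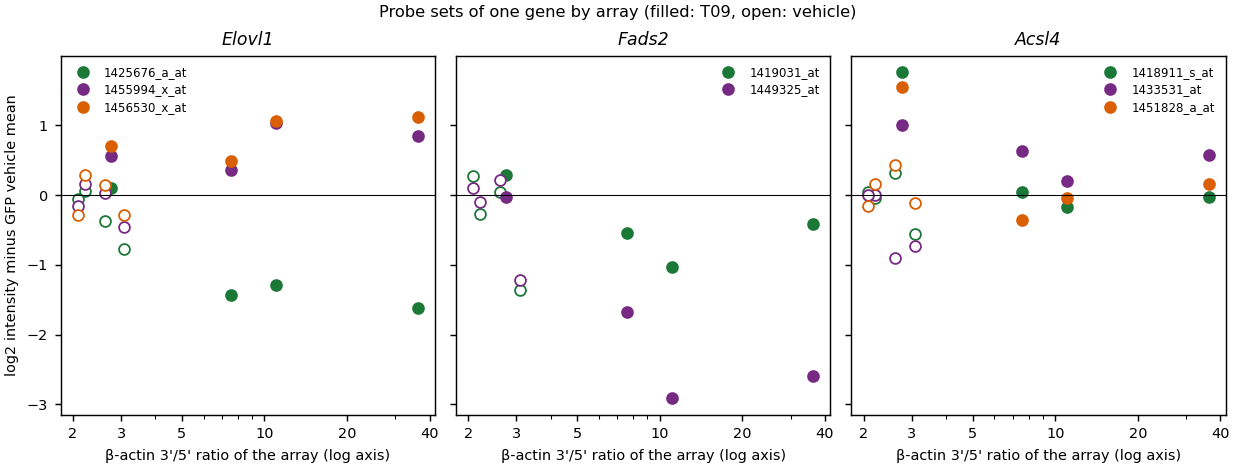
Log2 intensity of each probe set of Elovl1, Fads2 and Acsl4 minus its GFP vehicle mean (vertical axis) against the β-actin 3′/5′ ratio of the array (log axis), with filled points for T09 arrays and open points for vehicle arrays. On the 3 arrays with ratios of 7.56, 11.0 and 36.3 the leading Elovl1 and both Fads2 probe sets lie below the GFP vehicle mean, and the x_at probe sets of Elovl1 lie above it.

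Acsl4 (chrX:142317993-142390802), the acyl-CoA synthetase that prefers arachidonic acid, had the lowest adjusted p of the members. Its leading probe set had 1040 and 776 on the LXRα T09 arrays, 278 and 313 on the LXRα vehicle arrays, 807 and 595 on the GFP T09 arrays and 520 and 518 on the GFP vehicle arrays. Every T09 array lay above every vehicle array, as for 8.2% of all probe sets, and the LXRα vehicle arrays were the lowest of all. The 18S control signal separates the same arrays. LXRα T09 against LXRα vehicle was 1.60 (SE 0.26, 3.04-fold, adjusted p = 0.133) and GFP T09 against GFP vehicle 0.42 (SE 0.26, 1.33-fold, adjusted p = 0.505). The averaged T09 difference was 1.01 (SE 0.18, 2.01-fold, adjusted p = 0.069). LXRα vehicle against GFP vehicle was -0.81 (SE 0.26, 1.76-fold lower, adjusted p = 0.860 from limma). The interaction was 1.19 (SE 0.37, unadjusted p = 0.0148, adjusted p = 1.00 from limma), which did not pass.

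The other Acsl4 probe sets were dim and did not separate the T09 arrays from the vehicle arrays. On the a_at one the values were 148 and 56.3 on the LXRα T09 arrays, 68.0 and 46.8 on the LXRα vehicle arrays, 39.3 and 49.0 on the GFP T09 arrays and 56.2 and 45.4 on the GFP vehicle arrays. On the s_at one they were 72.1 and 20.9 on the LXRα T09 arrays, 26.4 and 14.4 on the LXRα vehicle arrays, 22 and 19.0 on the GFP T09 arrays and 20.6 and 22 on the GFP vehicle arrays. Only replicate 1 of the LXRα T09 livers stood out on them. T09 against vehicle was 0.69 and 0.99 in LXRα livers, the same direction as the leading probe set, and -0.20 and -0.06 in GFP livers, the opposite direction.

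Marker signals of some cells other than hepatocytes differed in the same direction as Acsl4 in the comparisons that use the LXRα vehicle arrays. Between GFP T09 and GFP vehicle those of macrophages mostly did not, and those of stellate cells were split. Summed stellate cell and matrix signal (9 tested of 10) was 2940 to 3340 on the LXRα T09 arrays, 948 to 1180 on the LXRα vehicle arrays, 2360 to 3290 on the GFP T09 arrays and 1820 to 3110 on the GFP vehicle arrays. Higher values in LXRα T09 than in LXRα vehicle livers were measured for 8 of its 9 markers, and lower values in LXRα vehicle than in GFP vehicle livers also for 8. The macrophage signal (13 tested of 14) was 5350 to 6420 on the LXRα T09 arrays, 2050 to 5890 on the LXRα vehicle arrays, 4850 to 10800 on the GFP T09 arrays and 7870 to 10600 on the GFP vehicle arrays. Of its 13 markers, 11 were higher in LXRα T09 than in LXRα vehicle livers, and 13 were lower in LXRα vehicle than in GFP vehicle livers. Endothelial signal (9 tested of 9) was 1070 to 1210 on the LXRα T09 arrays, 565 to 801 on the LXRα vehicle arrays, 902 to 1240 on the GFP T09 arrays and 833 to 902 on the GFP vehicle arrays, with 8 of 9 markers higher and 8 of 9 lower in those comparisons. Between GFP T09 and GFP vehicle, where Acsl4 differed by 0.42, macrophage markers were 4 higher and 9 lower (median -0.68), stellate cell markers 4 higher and 5 lower, and endothelial markers 7 higher and 2 lower. Between LXRα T09 and LXRα vehicle, lymphocyte markers were 1 higher and 5 lower and erythroid markers 0 higher and 3 lower. The only tested adipocyte marker of 5, Fabp4, also made by macrophages, had 780 and 836 on the LXRα T09 arrays, 214 and 99.0 on the LXRα vehicle arrays, 1080 and 468 on the GFP T09 arrays and 468 and 505 on the GFP vehicle arrays. No defining marker was at 0, but the macrophage markers Cd68 at 6.85 and Fcgr1 at 7.48 lay under the floor of 7.50 on replicate 2 of the LXRα vehicle livers. Fewer cells of a type and less RNA per cell cannot be told apart in bulk liver, and the part of these cells in the Acsl4 values was not tested.

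Acsl5 (chr19:55251861-55296628), a synthetase of the endoplasmic reticulum and mitochondria that feeds acyl-CoA to glycerolipid synthesis, had 4570 and 4100 on the LXRα T09 arrays, 2170 and 1030 on the LXRα vehicle arrays, 2930 and 3410 on the GFP T09 arrays and 2040 and 1690 on the GFP vehicle arrays. Every T09 array lay above every vehicle array, again as for 8.2% of all probe sets and as the 18S control signal separates them, and the LXRα T09 arrays were the 2 highest. LXRα T09 against LXRα vehicle was 1.53 (SE 0.35, 2.89-fold, adjusted p = 0.187), and GFP T09 against GFP vehicle 0.77 (SE 0.35, 1.70-fold, adjusted p = 0.417). The averaged T09 difference was 1.15 (SE 0.25, 2.22-fold, adjusted p = 0.0842). The difference in LXRα livers was 1.00 without replicate 2 and 2.07 without replicate 1 of the LXRα vehicle livers. Acsl5 was seen by 1 probe set, and the difference in its T09 effect between transgenes was 0.77 (SE 0.50, unadjusted p = 0.170 from limma). LXRα vehicle against GFP vehicle was -0.31 (SE 0.35), with arrays that overlapped.

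**Figure D3:**
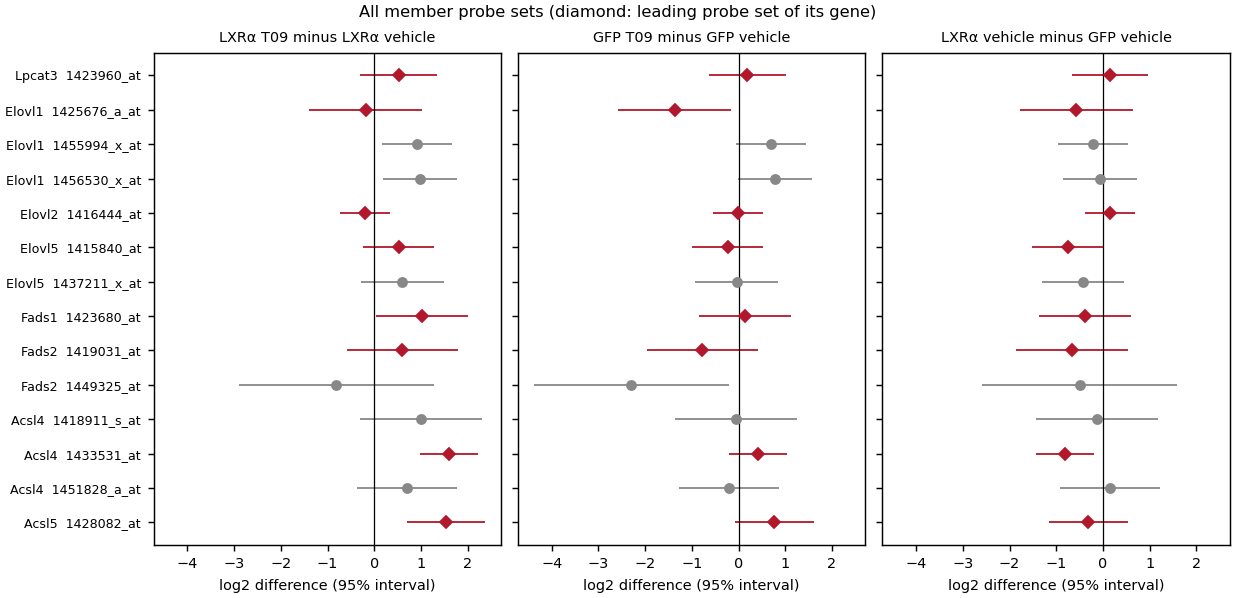
Log2 differences with 95% intervals from limma for all 14 member probe sets in 3 comparisons, with red diamonds for leading probe sets and grey circles for the others. In LXRα livers the T09 intervals of the leading Acsl4 probe set (0.99 to 2.22), Acsl5 (0.69 to 2.37) and Fads1 (0.03 to 2.01) lie above 0. So do those of both x_at probe sets of Elovl1 (0.16 to 1.67 and 0.19 to 1.77). The intervals are not adjusted for the number of probe sets. In that comparison 13.2% of all probe sets had an unadjusted p under 0.05. The Elovl1 probe sets point in opposite directions in GFP livers.

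Read by comparison, the 8 leading probe sets had a median difference of 0.56 for LXRα T09 against LXRα vehicle, with 6 higher and 2 lower, beside a median of -0.05 over all tested probe sets, of which 44.4% were higher. GFP T09 against GFP vehicle gave a median of 0.06, with 4 higher and 4 lower, beside -0.05 with 45% higher. LXRα vehicle against GFP vehicle gave -0.48, with 2 higher and 6 lower, beside 0.05 with 59.8% higher. The first and the last of these comparisons use the LXRα vehicle arrays and had medians away from 0. Both medians moved when either of those arrays was left out. Without replicate 2 of the LXRα vehicle livers the median was 0.076 for LXRα T09 against LXRα vehicle, with 5 higher and 3 lower, and 0.094 for LXRα vehicle against GFP vehicle, with 5 higher and 3 lower. Without replicate 1 of that group the medians were 1.17 and -0.82. LXRα T09 against GFP T09, which shares the LXRα T09 arrays with the first of these comparisons, gave 0.47 with 7 higher and 1 lower, beside 0.03 with 57.5% higher. Without replicate 1 of the LXRα T09 livers it was 0.18, with 5 higher and 3 lower, and without replicate 2 of that group 0.67. Averaged over treatments, LXRα against GFP was 0.04 beside 0.03 over all probe sets, and ran from -0.19 to 0.24 with 1 array left out. Averaged over transgenes, T09 against vehicle was 0.25 with 5 higher and 3 lower, beside -0.04 over all probe sets. The interaction had a median of 0.82 with 7 higher and 1 lower, beside -0.02 over all probe sets. Without replicate 2 of the LXRα vehicle livers these 2 medians were 0.025 and 0.29, and without replicate 1 of that group 0.47 and 1.29. The medians carry no test, and no single member passed in these comparisons.

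The LXRα vehicle arrays stood apart from each other more for these genes than for the array as a whole. Between the 2 LXRα vehicle arrays 7 of 8 members were lower on replicate 2, with a median of -0.88 for replicate 2 minus replicate 1, while all tested probe sets had a median of -0.01 and 53.8% were lower. Fads2 differed by -1.40, Fads1 by -1.08, Acsl5 by -1.07 and Elovl5 by -1.02 between these arrays, and 3.23% of all probe sets were lower by more than 1. Acsl4 was the exception on its leading probe set, at 0.17, while its dim probe sets were lower on replicate 2 (68.0 to 46.8 and 26.4 to 14.4). The median size of the gap was 0.885 for the members and 0.189 for all probe sets. The 8 leading probe sets ranked at 77.0% to 99.5% of all probe sets by mean log2 value, and the gaps were not matched for brightness. The arrays had β-actin ratios of 2.61 and 3.08 and the macrophage marker sum was 5890 on replicate 1 and 2050 on replicate 2, whose part in the gap was not tested. Without replicate 2, LXRα vehicle against GFP vehicle became 0.15 for Fads1, 0.04 for Fads2 and 0.22 for Acsl5, against -0.39, -0.66 and -0.31 with both arrays. The same differences were -0.93, -1.36 and -0.85 without replicate 1, and 2 arrays cannot show which of them is unusual.

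The leading probe sets of all 8 members were also lower on replicate 2 than on replicate 1 on the LXRα T09 arrays. Their median gap was -0.49 beside 0.11 over all probe sets, of which 38.7% were lower. Elovl1 had the largest gap there, -1.72, but its x_at probe sets were higher on replicate 2 (189 to 232 and 316 to 421). The second Elovl5 probe set was also higher on replicate 2 (4410 to 5650), and the other Fads2 and Acsl4 probe sets were lower. This pair holds the lowest and the highest β-actin ratio of the T09 arrays. In GFP T09 livers 4 members were higher and 4 lower, and in GFP vehicle livers 2 were higher and 6 lower, with median gaps of 0.06 and -0.11.

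**Figure D4:**
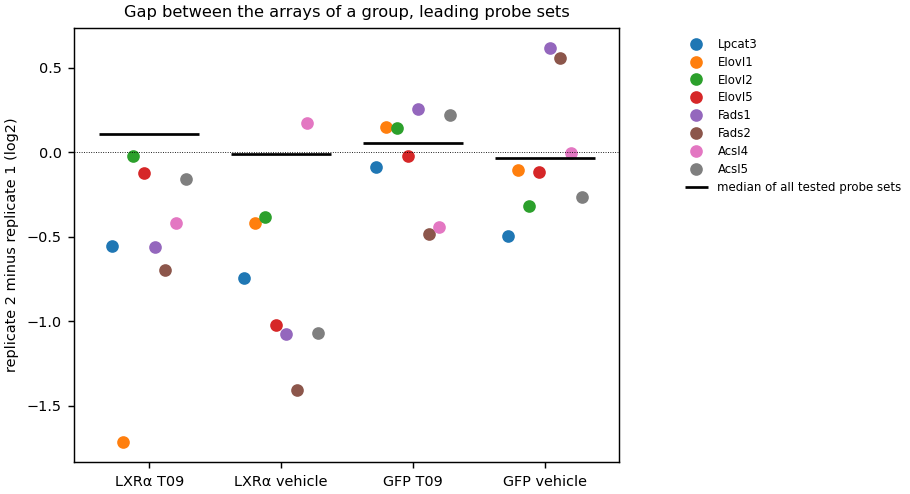
Log2 difference between replicate 2 and replicate 1 of each group for the 8 leading probe sets (points) and the median over all tested probe sets (black bars). The members spread from -1.40 to 0.17 on the LXRα vehicle arrays, where the median of all probe sets is -0.01.

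Other genes of the pathway were counted from 6 lists with 100 genes, 73 of them tested. They passed an adjusted p under 0.05 in the averaged T09 comparison only, where 2 did, Elovl6 and Scd2, both higher. Elovl6, the elongase that turns palmitic into stearic acid, had 1440 and 1770 on the LXRα T09 arrays, 289 and 113 on the LXRα vehicle arrays, 1070 and 1770 on the GFP T09 arrays and 371 and 213 on the GFP vehicle arrays. Scd2, a desaturase that makes monounsaturated acids, had 1500 and 607 on the LXRα T09 arrays, 95.1 and 35 on the LXRα vehicle arrays, 514 and 456 on the GFP T09 arrays and 212 and 141 on the GFP vehicle arrays. All T09 arrays exceeded all vehicle arrays for both, as for 8.2% of all probe sets, and the 18S control signal separates the same arrays. Elovl6 rose by 2.72 (SE 0.36, adjusted p = 0.048) and Scd2 by 2.77 (SE 0.41, adjusted p = 0.0491). Both values sit just under the threshold and did not pass under 11 and 12 of 18 other settings, among them the β-actin covariate, with differences that stayed between 2.38 and 3.48 in size.

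At an unadjusted p under 0.05, 17 of the 73 were higher and 4 lower with T09 (12.7% and 10.5% of all probe sets). By role, the other elongation and desaturation genes had 4 higher and 0 lower of 11, the other synthetases and thioesterases 4 higher and 1 lower of 15, and the other acyl remodelling genes 4 higher and 1 lower of 17. Head group synthesis had 1 higher of 13, peroxisomal steps 1 higher of 9, and the regulators 3 higher and 2 lower of 8. Near the threshold were Mid1ip1, a regulator of lipogenesis, at 1.57 (adjusted p = 0.0790), Acss2, which makes acetyl-CoA, at 2.12 (adjusted p = 0.0842), Ehhadh, a peroxisomal oxidation enzyme, at 1.95 (adjusted p = 0.0824), and Lpcat1, the acyltransferase for saturated chains, at 0.87 (adjusted p = 0.0992). Srebf1, the gene of SREBP-1c, was at 1.22 (SE 0.35, adjusted p = 0.128). On the LXRα vehicle pair 53 of the 73 genes were lower on replicate 2, beside 53.8% of all tested probe sets. Medians by list ran from -0.36 for the other elongation and desaturation genes to -0.06 for head group synthesis. The median over all tested probe sets on this pair was -0.01. Elovl6 and Scd2 had gaps of -1.35 and -1.44 there, and Srebf1 had -0.12.

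**Figure D5:**
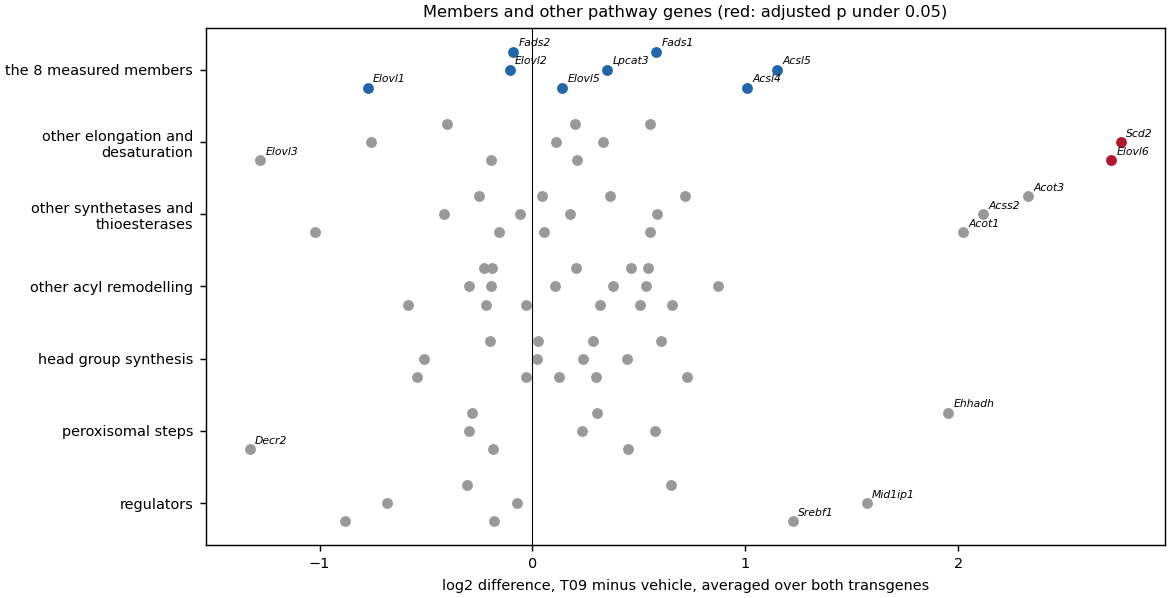
Log2 difference between T09 and vehicle, averaged over both transgenes, for the leading probe sets of the 8 measured members (blue) and the 73 other pathway genes by list (grey, red where the adjusted p is under 0.05), with vertical jitter for legibility. Acsl4 at 1.01 and Acsl5 at 1.15 are the highest members, and Elovl6 and Scd2 lie at 2.72 and 2.77.

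The genes whose log2 values followed each member most closely over the 8 arrays were taken from 9358 other genes, by Pearson's r as a description, with group differences and array quality shared by all points. They were Tgoln1 (r = 0.98) and Anxa1 (0.97) for Acsl4, Npc2 (0.98) and Rexo2 (0.98) for Acsl5, Samm50 (0.95) and Prelid3b (0.95) for Lpcat3, and Mmadhc (0.98) and Gstm2 (0.97) for Fads1. For Fads2 they were Fgf21 (0.97) and Ptpmt1 (0.97), for Elovl5 Myo1d (0.97) and Pigc (0.97), for Elovl2 Myef2 (0.93) and Traf7 (0.93), and for Elovl1 Cd99 (0.98) and Nudt22 (0.97). These values carry no test, and no shared function or control is read from them.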

How the data were processed

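Liver RNA was hybridised to Affymetrix mouse arrays, 1 array per sample, per the labels. The authors deposited 1 linear intensity per probe set and array, without detection calls. How probes were summarised and arrays scaled is not given in the sources used here. Each sample is from a mouse, per the labels, but no label says how the mice relate, so p-values cover only the variation among these samples, whose small number limits how precise a value can be.

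Of 22690 probe sets, 64 controls were left out. Intensities were raised to a floor of 7.50 (20th percentile) and log2-transformed, and probe sets above the 30th percentile of mean log2 value were tested (15838). One limma 3.58.1 fit of 4 group means (R 4.3.3, eBayes with trend, 4 residual and 2.93 prior degrees of freedom) gave 7 contrasts, with Benjamini-Hochberg adjustment across the tested probe sets and calls at an adjusted p under 0.05. A gene's leading probe set is its brightest tested one with 1 symbol, x_at only where there is no other. All member probe sets are described. Of other pathway genes, up to 4 per list with the smallest p could be named, and 2 nearest genes per member. Markers covered hepatocytes, macrophages, stellate cells, endothelium, lymphocytes, cholangiocytes, erythroid cells and adipocytes. Members, lists and alternatives were chosen with earlier results of these data known. Same-numbered samples were not paired: correlations of their deviations ran from -0.14 to 0.25. The fit was run on simulated data with independent noise, which checked only that added differences were returned at their size on average. Differences in RNA quality between arrays were not simulated, so that check does not cover them. The further genotype that all groups share is not reported here.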

Additional observations from a re-analysis of the deposited data

How the results depend on the processing

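The count of member probe sets called stayed at 0 in all 7 comparisons under every alternative listed in this paragraph, except in the averaged T09 comparison. There it was 2 at an adjusted p under 0.10 (Acsl4 and Acsl5). Among the other pathway genes Elovl6, Scd2, Mid1ip1, Acss2, Ehhadh and Lpcat1 also fell under 0.10. The share of all probe sets under 0.10 is not given here, so the 2 members cannot be set against it. In the same comparison the member count also moved with 1 array left out. It was 3 without replicate 1 of the LXRα T09 livers, the T09 array with the low β-actin ratio: Acsl4 at 0.90 (adjusted p = 0.0392), the leading Elovl1 probe set at -1.20 (adjusted p = 0.018) and the second Fads2 probe set at -2.20 (adjusted p = 0.048), while 9.52% of all probe sets were called, against 0.568% with all arrays. The alternatives were quantile normalization, centring on array medians, a lower floor, an offset of 16, no filter or a stricter one, no intensity trend, robust spread, the β-actin ratio as a term of the fit, fewer arrays and a replicate block. With the replicate block the members called were 0 in each comparison, and all probe sets called in the averaged T09 comparison numbered 17 instead of 90. With the β-actin term that count was 4. With 1 array left out it ran from 0 to 1508, and the count for LXRα T09 against LXRα vehicle, 4 with all arrays, from 0 to 474. The GFP T09 comparisons without the 3 arrays of high ratio were not run, because no GFP T09 array was left. Quantile normalization and centring moved the median difference of all probe sets by at most 0.0924.

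Directions turned as follows, and the cause was not tested. For Elovl1, the β-actin term gave 0.63 in LXRα livers and 0.10 on average for T09 against vehicle, leaving out the 3 arrays of high ratio gave 0.67 in LXRα livers, and the x_at probe sets gave 0.69 and 0.77 in GFP livers, 0.92 and 0.98 in LXRα livers and 0.81 and 0.88 on average. Fads2 was at 0.36 on average with the β-actin term, against -0.09 without it. In LXRα livers it was at -0.82 on its other probe set, against 0.60 on the leading one. On average that other probe set was at -1.56 (SE 0.62, adjusted p = 0.203 from limma). Acsl4 on its other probe sets was at -0.057 and -0.20 for GFP T09 against GFP vehicle, and at 0.16 for LXRα vehicle against GFP vehicle. Elovl2 was at 0.049 after centring in GFP livers, and at 0.039 after quantile normalization for LXRα T09 against GFP T09, where Elovl5 was at -0.0077 after centring.

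With 1 array left out, LXRα vehicle against GFP vehicle ran from -0.22 to 0.52 for Lpcat3, -0.040 to 0.34 for Elovl2, -0.93 to 0.15 for Fads1, -1.36 to 0.041 for Fads2 and -0.85 to 0.22 for Acsl5. GFP T09 against GFP vehicle ran from -0.063 to 0.43 for Lpcat3, -0.18 to 0.14 for Elovl2 and -0.17 to 0.45 for Fads1. LXRα T09 against LXRα vehicle ran from -1.04 to 0.67 for Elovl1 and -0.10 to 1.30 for Fads2. LXRα T09 against GFP T09 ran from -0.25 to 1.47 for Elovl1, -0.10 to 0.046 for Elovl2 and -0.060 to 0.061 for Elovl5. Averaged T09 differences ran from -0.12 to 0.40 for Elovl5 and -0.44 to 0.26 for Fads2, and the interaction from -0.038 to 0.71 for Lpcat3 and -0.37 to 0.013 for Elovl2. With 2 arrays a group, differences of this size are not settled here.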
